A study of Mus musculus with 27 samples.

Results

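The nuclear receptor gene Ppara and 7 genes of the fatty acid burning program it controls in liver were described in a mouse hepatocyte line treated with acetaminophen. The 8 were Ppara, Pdk4, Cpt1a, Acadm, Angptl4, Fgf21, Ehhadh and Hadha. They were chosen by name, with earlier results of these data known, so the shares called are given as descriptions. Each was read from the probe set annotated to that symbol alone. All 8 were found, each with 1 such probe set, among 19938 genes measured. At 24 h, 3 of the 8 (Pdk4, Angptl4 and Hadha) were called higher with APAP than in control cultures, where 9.33% of all genes were called, 3.36% higher and 5.97% lower. Pdk4 and Angptl4 were also called higher with APAP than with its isomer AMAP, a comparison in which 4.65% of all genes were called, 1.87% higher. The calls of Angptl4 and Hadha were lost without some single arrays. The change in Pdk4 was 1.91-fold. Ppara itself passed the test in no comparison, except that with the array number as a block it passed for APAP against control at 6 h.

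PPAR alpha is a nuclear receptor that is activated by fatty acids and their derivatives and binds DNA together with a retinoid X receptor. In the fasted liver it raises the genes for fatty acid uptake, entry into mitochondria, beta-oxidation in mitochondria and peroxisomes, and ketone body synthesis. Several of its target genes also answer to other signals: glucocorticoids raise Pdk4 and Angptl4, insulin lowers Pdk4, and amino acid shortage raises Fgf21 through ATF4.

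The data were 27 Affymetrix Mouse Gene 1.0 ST arrays of total RNA from TAMH, an immortal hepatocyte line obtained from TGF-alpha transgenic mice. Cultures received 2 mM APAP (acetaminophen, with its hydroxyl group in the para position), 2 mM AMAP (the isomer with that group in the meta position) or control medium for 2, 6 or 24 h. Each of the 9 groups had 3 arrays, which carry the numbers 30, 31 and 32, each after a P, in the labels. All groups, controls included, were kept in serum-free medium with dexamethasone, a glucocorticoid, and with insulin, transferrin, selenium, nicotinamide and gentamicin. All arrays come from a single cell line. The labels give cell passages from 25 to 35 for every array and do not say whether the P numbers are passages or whether arrays of a group came from separate cultures, so p-values here measure the spread between these samples.

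Values were log2 signals, on which a difference of 1 is a doubling. A gene was called where limma's test, adjusted by the Benjamini-Hochberg method over all 19938 genes, gave an adjusted p under 0.05. Array medians lay between 6.92 and 7.07 over all probe sets and between 7.25 and 7.36 over the 19938 genes, the median used below, and arrays of a group correlated at 0.992 to 0.997 across genes. Of the hepatocyte markers, 11 of 13 measured were above the array median on every array, with a median at percentile 96.3 of all genes. Markers of macrophages and leukocytes, endothelium and adipocytes had median percentiles of 28.2, 25.4 and 37.8. Of these, 2 of 8, 0 of 6 and 0 of 5 were above the array median on every array. The 2 were Cd14 (percentile 95.2) and Cd68 (62.3). Biliary and progenitor markers had a median percentile of 74.6, with 3 of 4 above the array median on every array, and fibroblast and stellate markers one of 47.8, with 3 of 9 above it, Vim (percentile 99.7) and Dcn (98.5) among them. In the 9 treatment comparisons limma called 0 hepatocyte markers and 5 differences of other markers: Cd14 was lower at 6 h with APAP (-0.40) and AMAP (-0.34), and at 24 h Vim (-0.24) and Sox9 (-0.35) were lower with APAP than in control, and Sox9 (-0.47) than with AMAP. Their part in the results was not tested. In bulk RNA, fewer cells of a type and less RNA per cell cannot be told apart. Signals of different probe sets are not on a common scale, so levels are not compared between genes. Members other than Fgf21 were above the array median on all 27 arrays. Fgf21 was above it on 0 of 27 arrays, and its group means stayed between 6.56 and 6.90, below those medians.

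The start-site sequences are shown for the receptor's targets that the results below turn on, and for Fgf21, because that stretch holds 3 of the motifs searched. They are the 250 bases before the RefSeq start of the gene in GRCm38.p6, 5′ to 3′, for Pdk4 (chr6:5496279-5496528 on the minus strand), Ehhadh (chr16:21787835-21788084 on the minus strand), Hadha (chr5:30154981-30155230 on the minus strand) and Fgf21 (chr7:45615491-45615740 on the minus strand). Capitals mark exact motif matches.
Pdk4: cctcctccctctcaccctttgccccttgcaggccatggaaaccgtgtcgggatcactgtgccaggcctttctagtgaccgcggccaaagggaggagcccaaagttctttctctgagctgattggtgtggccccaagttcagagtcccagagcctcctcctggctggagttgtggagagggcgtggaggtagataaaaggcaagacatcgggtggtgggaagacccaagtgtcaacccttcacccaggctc
Ehhadh: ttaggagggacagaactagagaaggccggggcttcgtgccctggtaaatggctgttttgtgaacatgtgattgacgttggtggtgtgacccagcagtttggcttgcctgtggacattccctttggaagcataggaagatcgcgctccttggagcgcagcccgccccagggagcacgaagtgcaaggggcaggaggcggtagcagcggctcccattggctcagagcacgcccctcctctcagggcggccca
Hadha: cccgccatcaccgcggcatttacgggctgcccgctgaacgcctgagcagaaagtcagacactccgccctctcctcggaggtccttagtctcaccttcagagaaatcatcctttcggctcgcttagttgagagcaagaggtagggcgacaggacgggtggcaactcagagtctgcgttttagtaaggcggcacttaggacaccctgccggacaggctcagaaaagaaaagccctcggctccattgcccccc
Fgf21: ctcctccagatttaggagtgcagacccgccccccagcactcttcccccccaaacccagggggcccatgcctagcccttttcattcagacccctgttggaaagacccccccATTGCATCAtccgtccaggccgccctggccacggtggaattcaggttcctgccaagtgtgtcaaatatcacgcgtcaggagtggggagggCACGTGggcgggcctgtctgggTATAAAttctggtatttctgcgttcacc

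Windows from 250 bases before to 50 after the start were found for 7 members, all but Angptl4, and were searched on both strands. The PPAR element, searched as 2 copies of AGGTCA in a row with 1 base between, was in 0 of the 7 and in 0.0396% of all 32851 windows. At so small a share, 0 of 7 does not tell whether these genes carry the element. Inexact copies and sequence outside the windows were not searched. The single unit AGGTCA, which the PPAR element contains, was in 2 of the 7, Cpt1a and Acadm, and in 16.3% of all windows. The FOXO site TGTTTAC was in 0 of the 7 and in 3.65% of all windows. Fgf21 held the ATF4 motif TGATGNAAT on the reverse strand at positions -140 to -132, the E-box CACGTG at -50 to -45 and TATAAA at -28 to -23, counted from the start base as 0. These motifs were in 0.965%, 7.15% and 13.6% of all windows. The 3 matches in Fgf21 do not overlap each other, and a match says only that the letters are there.

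Ppara, the receptor gene, passed the test in none of the 18 contrasts without a block. At 24 h, Ppara signals on arrays 30, 31 and 32 were 9.06, 8.84 and 8.37 in control, 8.68, 8.77 and 8.21 with AMAP and 8.71, 8.91 and 8.03 with APAP. Array 32 was the lowest of each group, and the groups overlapped. The difference from control was -0.21 with APAP (95% interval -0.58 to 0.16) and -0.21 with AMAP.

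At 6 h, Ppara signals were 8.59, 8.48 and 8.44 in control, 8.51, 8.26 and 8.0 with AMAP and 8.21, 8.05 and 7.87 with APAP. All 3 APAP arrays were below all 3 controls, whereas AMAP overlapped both. How many of all genes separated in that way at 6 h is not given here, so the separation is a description only. The APAP difference was -0.46 ± 0.18 (SE), with an interval of -0.84 to -0.09 and an adjusted p of 0.242. The array numbers paired the samples in that comparison, and with the number as a block the adjusted p was 0.0438. Over the 9 groups Ppara ran from 8.76 in 24 h controls to 8.04 with APAP at 6 h, and every neighbouring pair of groups in that order overlapped.

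**Figure D1:**
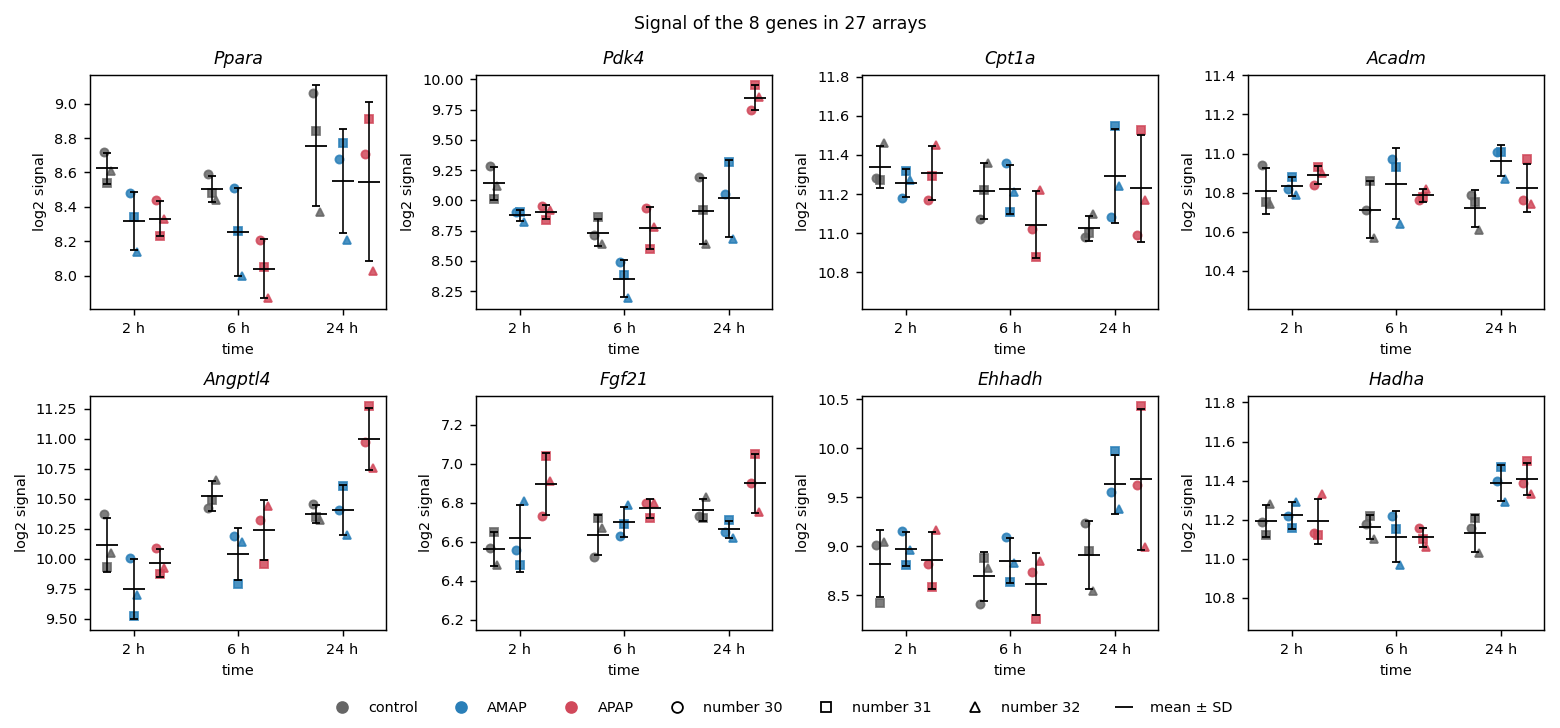
Log2 signal (vertical axis, with its own range in each panel) of the 8 members on each of the 27 arrays, by treatment and time; points are arrays, shaped by array number, and bars are group means ± SD (n = 3). Pdk4 and Angptl4 with APAP at 24 h stand above all other groups, while Ehhadh stands high at 24 h with both compounds.

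At 24 h, 3 of 8 members were called higher with APAP than in control and 0 lower. Of all genes, 9.33% were called in that comparison, 3.36% higher and 5.97% lower. The members' median difference was 0.24, against 0.02 over all genes. For AMAP against control at 24 h the members' median was 0.17, against -0.01 over all genes. APAP and AMAP were compared with the same control arrays, so the values below are set side by side and not read as independent of each other.

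Pdk4 encodes the kinase that inactivates pyruvate dehydrogenase and so spares glucose carbon while fat is burned. Its 24 h signals were 9.75, 9.95 and 9.85 with APAP, 9.05, 9.32 and 8.68 with AMAP and 9.19, 8.92 and 8.64 in control. The 3 APAP arrays were above every other array of that time, and AMAP and control overlapped. The difference of APAP from control was 0.93 ± 0.13 (SE, interval 0.66 to 1.21), with limma's adjusted p of 4.81e-05. AMAP differed from control by 0.10 (interval -0.17 to 0.37, adjusted p = 0.848). APAP exceeded AMAP by 0.83 ± 0.13, or 1.78-fold, with an adjusted p of 0.000219. Within the array numbers, APAP minus control was 0.56, 1.03 and 1.21. Without any single array of these groups both calls held, with differences of 0.80 to 1.07 from control and 0.67 to 0.98 from AMAP.

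Earlier, Pdk4 was called for neither compound. At 2 h its signals were 8.95, 8.84 and 8.92 with APAP, 8.90, 8.90 and 8.82 with AMAP and 9.28, 9.01 and 9.12 in control, so both compounds lay below control. The differences were -0.24 and -0.26, and neither was called. At 6 h the signals were 8.94, 8.60 and 8.78 with APAP, 8.49, 8.38 and 8.19 with AMAP and 8.71, 8.86 and 8.64 in control. AMAP arrays were then the lowest, by 0.38 from control (adjusted p = 0.285). Shares of all genes with arrays so separated are not given at 2 or 6 h, so these separations are descriptions. The APAP effect at 24 h exceeded that at 2 h by 1.17 ± 0.19 (interval 0.79 to 1.55, adjusted p = 0.00247), a contrast in which 0.356% of all genes were called. It exceeded the effect at 6 h by 0.90, with an adjusted p of 0.136, or 1.03 and 0.0427 without control array 30 of 24 h. The call on 24 h against 2 h was lost without the arrays numbered 30 (1.31, adjusted p = 0.0761) or 31 (1.15, adjusted p = 0.106).

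Across groups Pdk4 ran from 9.85 with APAP at 24 h to 8.35 with AMAP at 6 h. Neighbours in that order did not overlap at the top step, of 0.71 to the 2 h controls, and at the bottom step, of 0.38 between 6 h controls and 6 h AMAP. The other neighbours overlapped.

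Angptl4 encodes a secreted protein that inhibits lipoprotein lipase and thereby the release of fatty acids from circulating triglyceride. Its 24 h signals were 10.97, 11.27 and 10.76 with APAP, 10.41, 10.61 and 10.20 with AMAP and 10.46, 10.35 and 10.32 in control. Every APAP array was above every AMAP and control array, and those groups overlapped each other. APAP exceeded control by 0.63 ± 0.15 (interval 0.32 to 0.93), or 1.54-fold, with an adjusted p of 0.00772. AMAP minus control was 0.03 (interval -0.27 to 0.34, adjusted p = 0.97). APAP exceeded AMAP by 0.60 ± 0.15 (interval 0.29 to 0.90, adjusted p = 0.0179).

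Both Angptl4 calls were lost without some single arrays. The call against control was lost without APAP array 31 (0.49, adjusted p = 0.0696), without all arrays numbered 30 (0.69, adjusted p = 0.0571) and without those numbered 31 (0.48, adjusted p = 0.0846). The call against AMAP was lost without APAP array 31 (0.46, adjusted p = 0.108), AMAP array 30 (0.60, adjusted p = 0.059) or AMAP array 32 (0.49, adjusted p = 0.11). It was also lost without all arrays numbered 30 (0.61, adjusted p = 0.15) and without those numbered 32 (0.61, adjusted p = 0.114).

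At 6 h, Angptl4 signals were 10.32, 9.96 and 10.44 with APAP, 10.19, 9.79 and 10.14 with AMAP and 10.42, 10.49 and 10.66 in control, so that AMAP lay wholly below control. That difference was -0.48 (adjusted p = 0.195), and the separation is a description, with no share of all genes to set beside it. At 2 h the groups overlapped. The APAP effect at 24 h exceeded that at 2 h by 0.78 (adjusted p = 0.116) and that at 6 h by 0.91 (adjusted p = 0.211). Over the groups Angptl4 ran from 11.00 with APAP at 24 h to 9.74 with AMAP at 2 h, and the top group alone stood clear of its neighbour.

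Hadha and Ehhadh act in the later steps of beta-oxidation, Hadha as the alpha subunit of the mitochondrial trifunctional protein and Ehhadh as the bifunctional enzyme of peroxisomes. At 24 h both had higher means with either isomer than in control. Hadha signals were 11.39, 11.50 and 11.33 with APAP, 11.40, 11.47 and 11.29 with AMAP and 11.16, 11.21 and 11.03 in control. All treated arrays exceeded all controls. For scale, 13.3% of all genes had every APAP array above every control at that time and 8.71% had every AMAP array above.

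Hadha exceeded control by 0.28 ± 0.08 with APAP (1.21-fold, adjusted p = 0.0283), and by 0.26 (interval 0.09 to 0.42) with AMAP, which was not called (adjusted p = 0.148). APAP minus AMAP was 0.02, with an interval of -0.15 to 0.19. Within numbers 30, 31 and 32 the APAP difference was 0.24, 0.29 and 0.31, and the AMAP difference 0.24, 0.27 and 0.26. The APAP call was lost without any of 4 arrays: APAP 30 (0.28, adjusted p = 0.0606), APAP 31 (0.23, adjusted p = 0.141), control 30 (0.29, adjusted p = 0.0613) or control 32 (0.23, adjusted p = 0.143). It was also lost without all arrays numbered 30 (0.30, adjusted p = 0.234), 31 (0.27, adjusted p = 0.205) or 32 (0.26, adjusted p = 0.0516).

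Ehhadh signals at 24 h were 9.63, 10.43 and 8.99 with APAP, 9.55, 9.97 and 9.38 with AMAP and 9.24, 8.95 and 8.54 in control. AMAP stood wholly above control, and APAP array 32 fell inside the control range. The difference was 0.77 ± 0.26 with APAP (interval 0.25 to 1.30, adjusted p = 0.0559) and 0.72 with AMAP (interval 0.20 to 1.25, adjusted p = 0.225). Neither was called. The APAP difference was 1.12 (adjusted p = 0.00478) without APAP array 32, 0.94 (adjusted p = 0.0454) without control array 30 and 0.40 (adjusted p = 0.392) without APAP array 31. In the order of group means, both 24 h treated groups came first, followed by a step of 0.66 at which AMAP at 24 h did not overlap the next group. At 2 and 6 h, Ehhadh lay between 8.25 and 9.16 and Hadha between 10.97 and 11.33, with treated and control arrays overlapping.

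**Figure D2:**
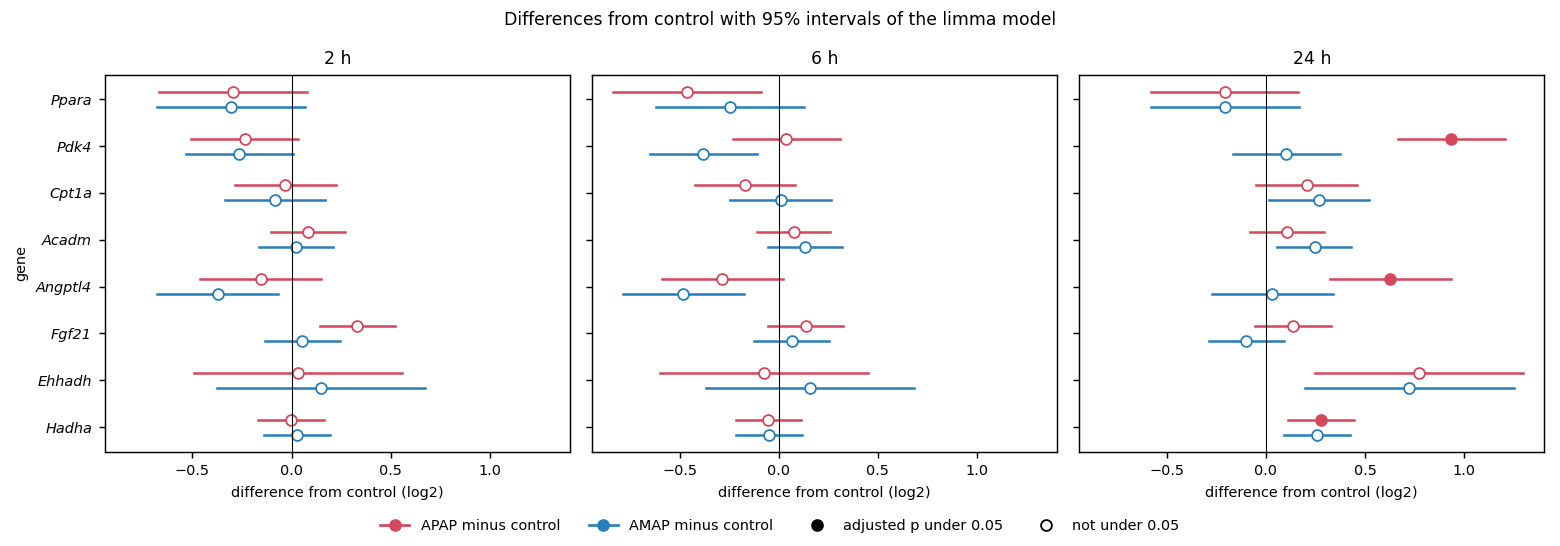
Difference in log2 signal (horizontal axis) of each member for APAP minus control and AMAP minus control at 2, 6 and 24 h, a panel per time; bars are 95% intervals from the fit to all arrays, and filled points have an adjusted p under 0.05. At 24 h the APAP intervals of Pdk4, Angptl4, Ehhadh and Hadha lie above 0. The AMAP intervals of Cpt1a, Acadm, Ehhadh and Hadha lie above 0, and those of Pdk4 and Angptl4 cover 0.

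Cpt1a makes the acylcarnitines that cross into mitochondria, the step at which malonyl-CoA controls the pathway, and Acadm oxidizes medium-chain acyl-CoA. Cpt1a signals at 24 h were 10.99, 11.53 and 11.17 with APAP, 11.08, 11.55 and 11.24 with AMAP and 10.98, 11.00 and 11.10 in control. Both treated groups had their highest array at number 31 and overlapped control. The differences from control were 0.21 (interval -0.05 to 0.46, adjusted p = 0.348) and 0.27 (interval 0.02 to 0.52, adjusted p = 0.408).

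Acadm signals at 24 h were 10.76, 10.97 and 10.74 with APAP, 11.01, 11.01 and 10.87 with AMAP and 10.79, 10.75 and 10.61 in control. AMAP lay wholly above control by 0.25 (interval 0.06 to 0.43, adjusted p = 0.259), and APAP overlapped both. Over the 9 groups Cpt1a spanned 0.31, Hadha 0.30 and Acadm 0.25, against 1.496 for Pdk4, 1.26 for Angptl4 and 1.07 for Ehhadh.

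Fgf21 encodes a hormone that liver releases in fasting. Its 2 h signals were 6.73, 7.04 and 6.91 with APAP, 6.56, 6.48 and 6.81 with AMAP and 6.57, 6.65 and 6.48 in control. All APAP arrays were above all controls, and AMAP overlapped both. With no share of all genes given for such separation at 2 h, it is a description only. The APAP difference was 0.33 ± 0.09 (interval 0.14 to 0.52), with an adjusted p of 0.113. Fgf21 was listed highest in the 3 APAP groups, with means of 6.90, 6.90 and 6.77 at 24, 2 and 6 h, but each neighbouring pair of groups overlapped.

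In the other comparisons limma called 0 of 8 members. At 2 h, 0.682% of all genes were called for APAP against control, 0.181% for AMAP against control and 0.261% for APAP against AMAP, and 1 member in each had an unadjusted p under 0.05. At 6 h those shares were 2.50%, 0.456% and 0.707%, and 1, 2 and 1 members had an unadjusted p under 0.05. For AMAP against control at 24 h the share was 0.727%, and 4 members had an unadjusted p under 0.05, all higher: Cpt1a, Acadm, Ehhadh and Hadha. For APAP against AMAP at 24 h, where 2 of 8 were called, both higher, 4.65% of all genes were called, 1.87% higher.

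In untreated cultures no member's change over time was called. Limma called 0 of 8 in controls at 6 h against 2 h (background 0.707%, 2 with an unadjusted p under 0.05), 24 h against 6 h (0.0150%, 0 unadjusted) and 24 h against 2 h (1.14%, 2 unadjusted). The largest of these control shifts were Pdk4 at 6 h against 2 h, -0.41 (adjusted p = 0.215), and Angptl4 over the same span, 0.41 (adjusted p = 0.292).

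Of the contrasts of effects between times, limma called 1 of 8 members for APAP at 24 h minus 2 h, Pdk4, as above. It called 0 of 8 for APAP at 24 h minus 6 h (background 0.0100%), where 5 members, Pdk4, Angptl4, Ehhadh, Hadha and Cpt1a, had an unadjusted p under 0.05, all higher. For APAP at 6 h minus 2 h it called 0 of all genes. The AMAP effects gave 0 of 8 at 6 h minus 2 h (background 0.00502%), and 0 of all genes at 24 h minus 6 h, where 3 members, Pdk4, Angptl4 and Hadha, had an unadjusted p under 0.05, and at 24 h minus 2 h.

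**Figure D3:**
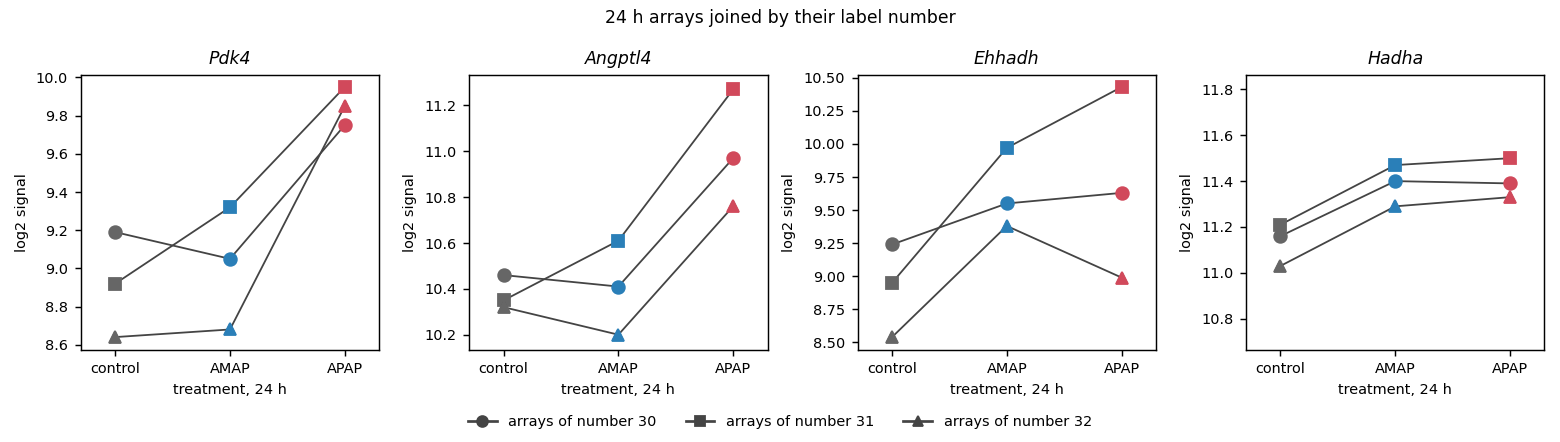
Log2 signal at 24 h (vertical axis, with its own range in each panel) of Pdk4, Angptl4, Ehhadh and Hadha in control, AMAP and APAP arrays (horizontal axis), with lines joining the arrays of a number, 30, 31 or 32. Pdk4 and Angptl4 are higher with APAP than with AMAP or control at every number, while Ehhadh with APAP runs from 8.99 at number 32 to 10.43 at number 31.

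The wider pathway was read from 12 lists of related genes, of which 152 of 168 entries were measured. These lists too were chosen with earlier results of these data known, so their shares are descriptions. For APAP against control at 24 h, 26 of the 152 were called (17.1%), 14 higher and 12 lower, beside 9.33%, 3.36% and 5.97% of all genes. The median difference was 0.04. The count was 15 without APAP array 31, 17 without control array 30 and 17 in a fit to the 6 arrays alone. Limma called 0 of the 152 for AMAP against control at 24 h, where 22 were higher and 6 lower at an unadjusted p under 0.05. At 2 h it called 0 in each comparison, with 12, 4 and 10 at an unadjusted p under 0.05 for APAP against control, AMAP against control and APAP against AMAP. At 6 h it called 5 for APAP against control, where 2.50% of all genes were called (Cpt1c, Txnip and Ncoa1 higher, Plin2 and Acot4 lower) and 9 with the array number, which paired the samples there, as a block; 0 for AMAP against control (13 unadjusted) and 3 for APAP against AMAP, where 0.707% of all genes were called (Cpt1c, Txnip and Prkab2, all higher). For APAP against AMAP at 24 h it called 5 higher and 13 lower (11.8% of the 152), beside 4.65% of all genes called and 1.87% called higher.

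The carnitine shuttle carries acyl groups into mitochondria, and its list here also holds carriers of carnitine and coenzyme A. That list had 4 of 7 measured genes called higher with APAP at 24 h, beside 3.36% of all genes, and 0 lower. Its median difference was 0.27, against 0.02 for all genes. Cpt1c, in the list by its family name and best known from neurons, rose by 1.195 ± 0.13 (adjusted p = 1.11e-06). It had already risen by 0.71 at 6 h (adjusted p = 0.00188). With APAP, Cpt1c exceeded AMAP by 1.17 at 24 h and by 0.68 at 6 h. Whether Cpt1c takes part in entry into mitochondria in these cells was not tested. AMAP minus control for Cpt1c at 24 h was 0.02, with an interval of -0.24 to 0.28. Slc22a5, the carnitine importer of the plasma membrane, rose by 0.65 (adjusted p = 0.000168), with 0.40 for AMAP (adjusted p = 0.0667). Slc25a20, the carnitine-acylcarnitine carrier of the inner membrane, rose by 0.27 (adjusted p = 0.0395). Slc25a42, a coenzyme A carrier, rose by 0.36. Slc25a20 and Slc25a42 were picked after their values were seen, as were Ncoa1, Acot4, Acot1, Tmem19, Prkag2, Hadhb, Acadvl, Hsd17b10, Echs1, Acox3, Acot8, Acsl5, Prkab2, Mlycd and Bdh1. The calls of these genes were not followed singly when arrays were left out, so whether they hold is not known. The Cpt1c call against AMAP at 6 h was lost without AMAP array 30 (0.63, adjusted p = 0.0587), and the 6 h calls against control (adjusted p = 0.0861) and AMAP (0.244) were lost without the arrays numbered 32.

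Mitochondrial beta-oxidation had 3 of 19 genes higher and 2 lower, or 26.3% called beside 9.33% of all genes. Acad11, an acyl-CoA dehydrogenase, rose by 0.83 ± 0.13 (adjusted p = 0.00017). Hadhb, the beta subunit that pairs with Hadha, rose by 0.35 ± 0.08 (adjusted p = 0.00801), and Acadvl, which oxidizes very long chains, by 0.35 (adjusted p = 0.0166). The AMAP differences of Hadhb and Acadvl were 0.23 and 0.21, not called. The hydratase Echs1 fell by 0.43 and Hsd17b10 fell by 0.26. Against AMAP, Acad11 was higher by 0.52 (adjusted p = 0.0202), a call lost without AMAP array 32 (0.39, adjusted p = 0.138) or APAP array 31 (0.39, adjusted p = 0.119).

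Peroxisomal beta-oxidation had 2 of 18 higher, the oxidase Acox3 by 0.37 and the thioesterase Acot8 by 0.29, and 1 lower, or 16.7% called beside 9.33% of all genes. The lower one was Pecr, a peroxisomal enoyl-CoA reductase, which fell by 0.51 (adjusted p = 0.000954) and was 0.50 below AMAP. Acyl-CoA thioesterases and omega-oxidation had 1 of 11 higher, Acot1 (0.38, adjusted p = 0.0492), a share of 9.09% that is near the 9.33% of all genes. Ketone body genes had 0 of 6 higher and 1 lower (16.7%), Bdh1, which fell by 0.40. Against AMAP the monocarboxylate carrier Slc16a7 was lower by 0.57 (adjusted p = 0.0455), a call lost without any AMAP array or without APAP array 30 or 32 (adjusted p from 0.0889 to 0.205).

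Pdp2, a phosphatase that reverses the action of the pyruvate dehydrogenase kinases, fell by 0.54 (adjusted p = 0.00201) and was 0.55 below AMAP. It was the single call among 11 genes measured in its list for APAP against control at 24 h, a share of 9.09% beside 9.33% of all genes. Uptake and activation had 0 of 13 higher and 2 lower (15.4%), the fatty acid binding protein Fabp5 by -0.73 (adjusted p = 0.00201) and the acyl-CoA synthetase Acsl5 by -0.40. Control of entry by malonyl-CoA and AMPK had 4 of 10 called (40%), 2 higher, the AMPK subunit gene Prkab2 by 0.37 and the malonyl-CoA decarboxylase Mlycd by 0.26, and 2 lower, Acaca and the AMPK subunit gene Prkag2 (-0.28). Acaca, which makes malonyl-CoA, was lower by 0.47 than control and by 0.58 than AMAP (adjusted p = 0.00574), the latter call lost without AMAP array 31 (adjusted p = 0.0518) or APAP array 32 (adjusted p = 0.0545). Fabp5 was lower than AMAP by 0.55 (adjusted p = 0.0276), a call lost without AMAP array 30 or 32 or APAP array 30 or 31 (adjusted p from 0.0703 to 0.175).

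Of other targets credited to PPAR alpha, 2 of 23 were called higher (Txnip and Tmem19, by 0.41) and 3 lower (Fads1, Fads2 and Aqp9), or 21.7% beside 9.33% of all genes. Txnip, which binds thioredoxin and limits glucose uptake, rose by 1.23 ± 0.23 at 24 h (adjusted p = 0.00106) and 1.05 at 6 h (adjusted p = 0.00991). It exceeded AMAP by 1.09 and 1.18 at those times. The desaturase genes Fads1 and Fads2 were lower than with AMAP at 24 h by 0.60 and 0.59 log2 units. Aqp9, a glycerol channel, fell by 0.62 (adjusted p = 0.0154), a call lost without APAP array 31 (adjusted p = 0.0568) or control array 32 (-0.46, adjusted p = 0.118). At 6 h Plin2, a lipid droplet coat protein, fell by 0.50 (adjusted p = 0.0145), a call lost without any of 4 arrays, APAP 30 or 31 and control 31 or 32 (adjusted p from 0.0546 to 0.11). Txnip's 6 h call against control was lost without APAP array 31 (adjusted p = 0.0573) or control array 32 (0.84, adjusted p = 0.0801), and that against AMAP without APAP array 31 (adjusted p = 0.0533) or AMAP array 32 (0.86, adjusted p = 0.0616).

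The lists with 0 genes called by limma for APAP against control at 24 h were the receptors and coregulators of PPAR (18 genes, 5 with an unadjusted p under 0.05), the angiopoietin-like proteins with lipoprotein lipase (8 genes, 1 unadjusted) and the receptors of FGF21 (8 genes, 0 unadjusted).

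**Figure D4:**
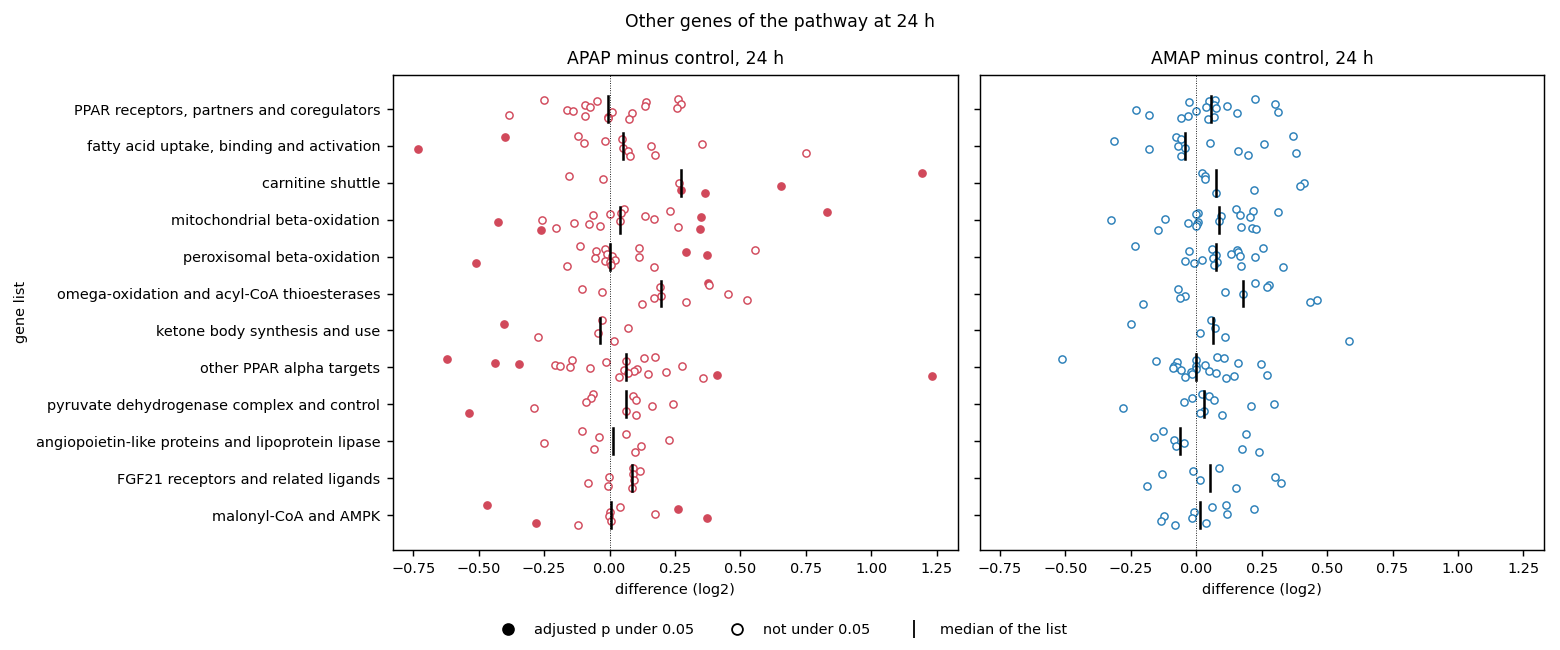
Difference in log2 signal at 24 h (horizontal axis) for APAP minus control and AMAP minus control of the measured genes of each pathway list, a point per gene, filled where called, with a bar at the median of the list. The carnitine shuttle has 4 called genes, all higher with APAP, and the other lists with several calls have them on both sides of 0 or below it.

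The members differed in which genes followed them most closely over the 27 arrays, which share groups, cell line and normalization. The genes most like Pdk4 were N4bp2l1 (Pearson r = 0.873), Dgka (0.853) and Ikbip (0.852), and those most like Angptl4 were Sgms1 (0.895), Ikbke (0.881) and Vwa5a (0.871). Hadha was followed by Etfdh (0.894), which passes electrons from the acyl-CoA dehydrogenases to the respiratory chain, by Nbr1 (0.855) and by Ehhadh (0.828). Pdk4 correlated with Hadha at 0.714, with Ehhadh at 0.635 and with Angptl4 at 0.631. These values describe likeness over arrays and carry no test.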

How the data were processed

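RNA of the TAMH line was measured on 27 arrays. The deposited values are log2 signals per probe set, made by the authors with RMA (background correction, quantile normalization and summary of probes) in Affymetrix Expression Console 1.1, per the submitters' processing notes; their scale was read from the values. RMA assumes like overall distributions and compresses changes of dim genes. Sources used here do not give the genome build of the probe annotation. Of 35557 probe sets, 21789 carried 1 symbol, 1621 several and 12147 none. Where 999 genes had several probe sets, the one with the highest mean was kept, which left 19938 genes. Control cultures are the background.

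The 9 group means were fitted to all 27 arrays in limma 3.58.1 (R 4.3.3; 18 residual degrees of freedom, two-sided), with Benjamini-Hochberg adjustment over all genes in each of 18 contrasts. Data were simulated for APAP against control at 24 h with 19938 genes and normal noise independent between arrays. Changes of 0.5, 1 and 2 log2 units, set in 67, 67 and 66 genes, were recovered in 76.1%, 100% and 100% of them, with 9 false calls. The real comparison called 1860 genes, so these shares and false calls are not those of the real test. The number of arrays limits precision: the median standard error of a difference was 0.10.

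The array numbers were taken to pair a comparison where each same-numbered correlation of deviations from group means was over 0.1. That held in 5 of 9 comparisons: APAP against control at 2 h, all 3 at 6 h, and APAP against AMAP at 24 h. The labels do not say what the numbers stand for.

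The members and gene lists were chosen with earlier results of these data known. All members are named, and of the lists the genes called in a treatment comparison with a difference of at least 0.5; other genes are marked as chosen after their values were seen. Alternatives were another block, fewer arrays per fit, another variance prior, array weights, centring, quantile normalization, a filter on dim genes, other probe sets and leaving out arrays. RefSeq start windows come from GRCm38.p6.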

Additional observations from a re-analysis of the deposited data

Results flagged for a closer look

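The effect of APAP differed between times in 4 of the genes described, by the contrast of the 24 h and 2 h differences from same-time controls. Limma called 1 of 8 members, 3 of 152 pathway genes and 0.356% of all genes in that contrast. For Pdk4 the 24 h effect exceeded the 2 h effect by 1.17 log2 units (adjusted p = 0.00247). The Pdk4 call was lost without the arrays numbered 30 (adjusted p = 0.0761) or 31 (0.106), and the other 3 genes were not followed singly in refits of this contrast. For Cpt1c the 24 h effect exceeded the 2 h effect by 0.99 (adjusted p = 0.0096) and for Slc22a5 by 0.70 (adjusted p = 0.0299). For Pecr the difference was -0.66 (adjusted p = 0.0242). The same contrast for AMAP was 0.37, -0.01, 0.38 and -0.12 for Pdk4, Cpt1c, Slc22a5 and Pecr, and limma called none of them. Whether the APAP and AMAP contrasts differ from each other was not tested.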

How the results depend on the processing

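Of 72 member differences in the treatment comparisons, 783 of 792 refits under 11 other settings and 630 of 648 refits that left out arrays gave the same call. No called difference changed sign, and 14 and 66 uncalled ones did, to at most 0.12 and 0.32 in size. Most of the 72 were not called in the main fit, so these counts say little about how stable the calls are. When arrays were left out, both Pdk4 calls at 24 h held every time, and those of Angptl4 and Hadha were lost in several refits. With the replicate number as a fixed block, members called became 1 for APAP against control at 6 h (Ppara) and 1 for the APAP effect at 24 h minus 6 h (Pdk4), where quantile normalization also gave 1. The fit to 6 arrays gave 1 for APAP against AMAP at 24 h. Array weights gave 1 for APAP against control at 2 h (Fgf21) and 2 for the effect at 24 h minus 2 h. Ehhadh at 24 h passed with array weights (adjusted p = 0.0283), quantile normalization (0.0479) and dim genes left out (0.0383). Hadha was lost with the 9 arrays of its time (0.0705), 6 arrays (0.0967) and median centring (0.066). The cause of these losses was not tested, and the fits to 9 and 6 arrays also had fewer arrays than the main fit.

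Pathway genes called for APAP against control at 6 h, 5 in all, were 9 with the fixed block, 8 with a random block, 2 with 9 arrays, 3 with 6 arrays, 8 with array weights and 8 with dim genes left out. For AMAP against control at 24 h, 0 became 5 (fixed block), 1 (random block), 2 (trend and robust prior), 5 (array weights), 1 (quantile) and 2 (dim genes left out). For APAP against AMAP at 6 h, 3 became 1 with 9 or 6 arrays and 5 with array weights. The 6-array fit gave 17 in place of 26 for APAP against control at 24 h and 9 in place of 18 for APAP against AMAP. Array weights gave 2 for APAP against control at 2 h. In the comparisons that the numbers paired, the replicate block changed no member's call other than that of Ppara. Nor did it change the call of any pathway gene already called there with a difference of at least 0.5. Calls of other pathway genes were not followed singly, so the genes behind the changed counts are not given.

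Leaving out arrays gave these ranges; leaving out single arrays was chosen after seeing the data. Members called were 1 to 4 for APAP against control at 24 h, 1 to 2 for APAP against AMAP at 24 h, and 0 to 1 for the APAP effect at 24 h minus 2 h and minus 6 h. Pathway genes called were 8 to 26 for APAP against control at 24 h (15 without APAP array 31, 17 without control array 30), 5 to 16 for APAP against AMAP at 24 h, 1 to 5 for APAP against control at 6 h, 1 to 2 for APAP against AMAP at 6 h and 0 to 1 for APAP against control at 2 h. Without all arrays of a number, calls beyond those given above were lost at 24 h against control for Fabp5 (numbers 30 and 31) and Aqp9 (31 and 32). Against AMAP at 24 h they were lost for Fabp5 and Acad11 (30 and 31), Pecr and Slc16a7 (30 and 32), Acaca (30), and Pdp2 and Txnip (31). At 6 h they were lost for Plin2 against control (30, 31 and 32) and for Txnip against control and against AMAP (30 and 31).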
